A study of Canis lupus familiaris with 29 samples.

Results

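The genes DPP6, BRINP1, VSTM2L, TOX2, CHST1, PTPRT, RPH3A, DSCAML1 and PCDH17, named here for their neuronal type, were followed across canine pheochromocytomas and paragangliomas (PPGLs) and normal adrenal medullas (NAMs). The 9 genes were selected on their higher level in PPGL group 1 than in PPGL group 2, so this contrast is given as a description without a test. They were 9 of the 30951 genes in the table, each was found by its name on 1 row, and all 9 passed the low-count filter, RPH3A and DSCAML1 only through the group 1 tumors. RNA was sequenced from 7 tumors of PPGL group 1, 12 tumors of PPGL group 2 and the NAMs of 10 dogs. The tumors came from client-owned dogs seen at several clinics and the NAMs from healthy research dogs, so origin and tissue cannot be told apart. The tumor groups had been drawn by the authors from a principal component analysis of the same samples, after 2 tumors had been set aside as outliers. Age, sex and genotype of the dogs were not used here. Reads counted per sample ranged from 19258054 to 35918182 in NAMs, from 18493540 to 31919833 in group 1 and from 18208718 to 24569667 in group 2. At these depths, 3 counts corresponded to 0.0835 to 0.165 CPM (read count scaled to the library total), a floor that covers counting error only.

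Chromaffin cells arise from the neural crest lineage that also gives rise to sympathetic neurons, and they share with neurons the machinery of excitability, regulated secretion and cell adhesion. The genes described here encode a potassium channel subunit, a vesicle protein, adhesion molecules, secreted or neural-induced proteins, a nuclear factor and a sulfotransferase. Many neuronal genes are kept silent outside the nervous system by the repressor REST and its corepressors.

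The chromaffin identity of the samples was checked first. DBH, which converts dopamine to noradrenaline, had a median of 6642 CPM after TMM normalization in NAMs, 17186 in group 1 and 12204 in group 2. TH, the rate-limiting enzyme of catecholamine synthesis, ranged from 1057 to 5971 CPM in NAMs, from 2.15 to 6712 in group 1 and from 32.3 to 6258 in group 2. DBH was thus present in all 3 groups, whereas TH was nearly absent from at least 1 group 1 tumor. Transcripts of the adrenal cortex were also present. The 10 adrenocortical markers in the table summed to a median of 37214 CPM in NAMs (14041 to 68680), 275 CPM in group 1 (92.0 to 1169) and 3673 CPM in group 2 (255 to 34298). Their most abundant gene was CYP17A1 in NAMs and in group 2 and STAR in group 1, and the medians of NR0B1 and MC2R in group 1 were 0.

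The position of NAM split the 9 genes. On the log2 scale, the NAM median lay nearer to group 1 than to group 2 for 7 genes, DPP6, BRINP1, VSTM2L, TOX2, CHST1, PTPRT and PCDH17, and nearer to group 2 for RPH3A and DSCAML1. TOX2, PCDH17 and CHST1 differed between group 1 and NAM by less than 1 standard error (SE) of the fitted log2 fold change (FC) and were low in group 2. DPP6, BRINP1, VSTM2L and PTPRT lay between the tumor groups in NAMs. RPH3A and DSCAML1 were barely detected in NAMs. This count depends on the scale, since on linear medians only TOX2, CHST1 and PCDH17, 3 of the 9 genes, had NAM nearer to group 1.

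**Figure D1:**
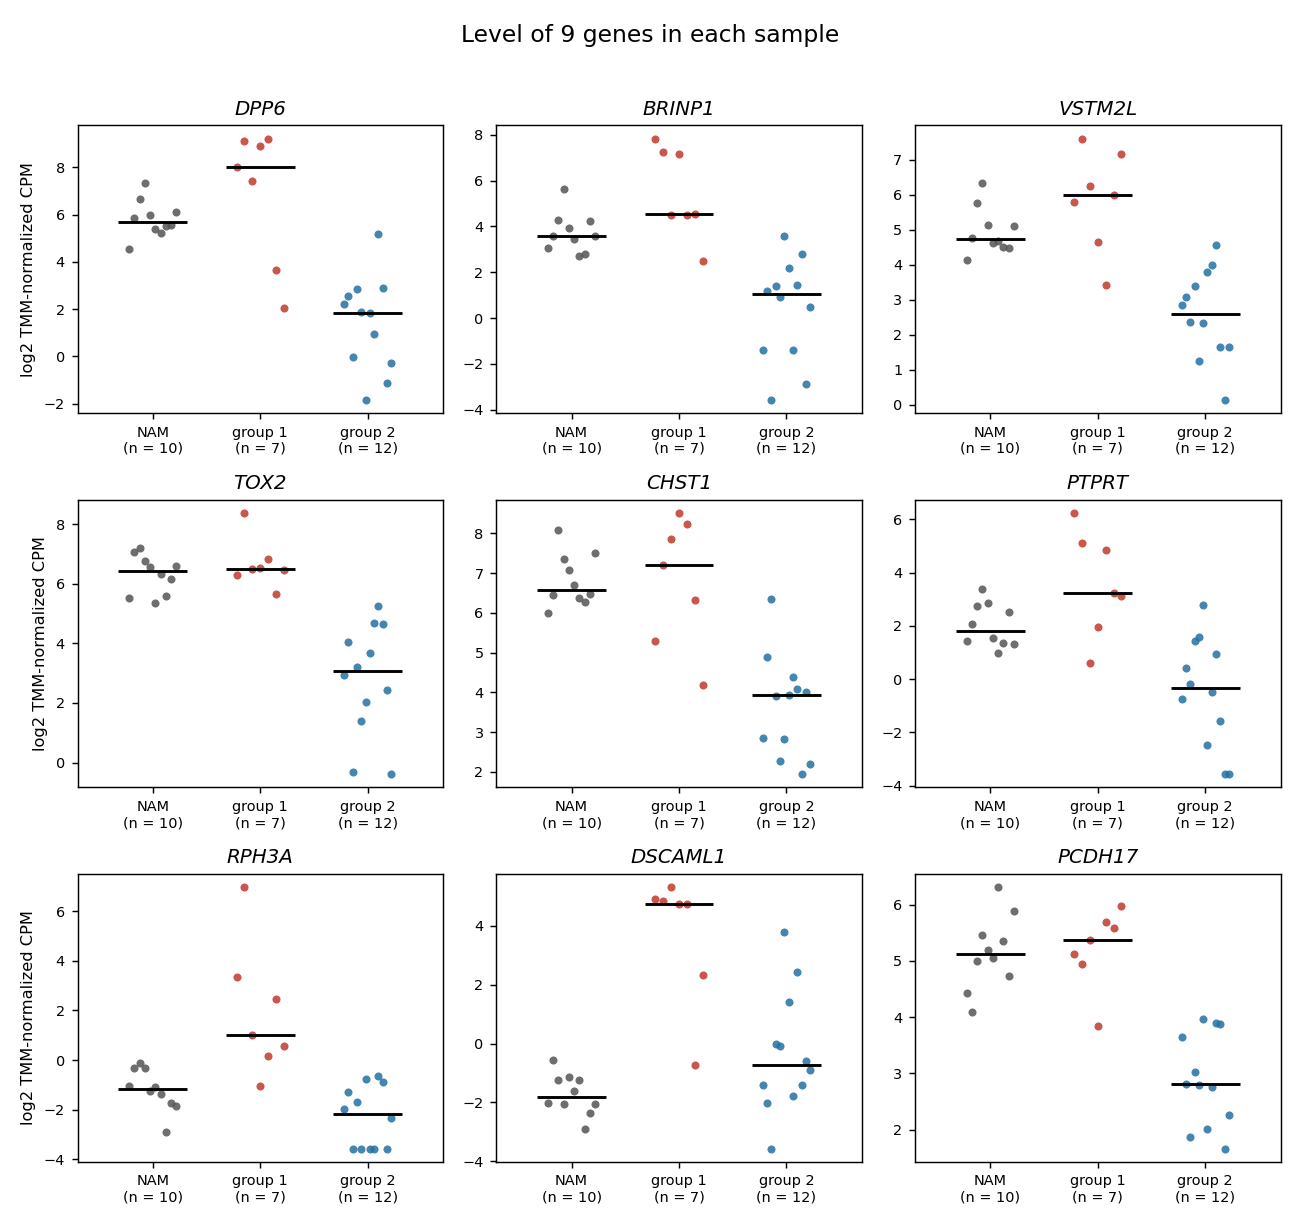
Level of each of the 9 genes in every sample, on the y axis (log2 of TMM-normalized CPM, prior count 2), for 10 NAMs, 7 group 1 tumors and 12 group 2 tumors on the x axis; points are samples and black lines are medians. NAM points lie beside those of group 1 for TOX2 and PCDH17, and DSCAML1 is near the floor in all 10 NAMs.

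DPP6, on chromosome 16 from 17357522 to 18041822 (CanFam3.1, as are all positions here), encodes an auxiliary subunit of Kv4 potassium channels. Its level was 4.09 to 598 CPM in group 1 (median 262), 0.194 to 36.8 CPM in group 2 (median 3.53) and 23.0 to 165 CPM in NAMs (median 52.3). Group 1 was divided, with 5 tumors above every NAM and replicates 6 and 7, at 12.4 and 4.09 CPM, below every NAM. In group 2, 11 of 12 tumors lay below every NAM, and the exception was replicate 9 at 36.8 CPM. Fitted log2 FCs were 5.64 (SE 0.95) for group 1 against group 2, 2.18 (SE 0.78) for group 1 against NAM and -3.43 (SE 0.72) for group 2 against NAM.

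RPH3A, on chromosome 26 from 10280850 to 10378061, encodes rabphilin, an effector of RAB3A on secretory vesicles. It ranged from 0.399 to 125 CPM in group 1 (median 1.95), from 0 to 0.564 CPM in group 2 (median 0.141) and from 0.0509 to 0.839 CPM in NAMs (median 0.358). Replicate 2 of group 1 held 84.7% of the summed CPM of the 19 PPGLs. The next highest tumor, replicate 1 of group 1, was at 10.1 CPM. Group 2 had 5 tumors with a count of 0 and 6 at or under 3 counts, and NAM counts were 1 to 28, so values in both were close to the floor. In group 1, 6 of the 7 tumors were above every NAM, and the remaining one, replicate 4, was within the range of the NAMs. Replicates 5, 7 and 3 were at 1.04, 1.38 and 1.95 CPM, beside 0.839 CPM in the highest NAM. RPH3A was chosen for its level in group 1 and passed the low-count filter only through it, so nothing is read from this count. The log2 FC was 6.69 (SE 1.14) for group 1 against group 2 and 5.60 (SE 0.99) for group 1 against NAM. Without replicate 2 these fell to 4.08 and 3.01 (SE 0.77 for the latter).

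DSCAML1, on chromosome 5 from 15826726 to 16186880, encodes an adhesion molecule of the immunoglobulin superfamily that acts in neurite self-avoidance. Its level was 0.525 to 39.7 CPM in group 1 (median 27.0), 0 to 13.6 CPM in group 2 (median 0.517) and 0.0509 to 0.598 CPM in NAMs (median 0.202). The NAM values rested on 1 to 15 counts. In group 1, 5 tumors lay at 26.9 CPM or more, replicate 7 was at 4.97 CPM and replicate 6, at 0.525 CPM, was within the NAM range. Group 2 was also mixed, with 5 of 12 tumors above every NAM, led by replicate 6 at 13.6 CPM and replicate 9 at 5.32 CPM. It was the only one of the 9 genes with any group 2 tumor above every NAM. The log2 FC against NAM was 6.43 (SE 0.97) for group 1 and 3.02 (SE 0.82) for group 2, and that of group 1 against group 2 was 3.42 (SE 0.92).

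PCDH17, on chromosome 22 from 13865900 to 13958405, encodes a protocadherin of the delta subfamily. It ranged from 14.3 to 63.0 CPM in group 1 (median 41.4), from 3.08 to 15.5 CPM in group 2 (median 6.90) and from 16.9 to 79.3 CPM in NAMs (median 34.7). All 12 group 2 tumors were below every NAM, and no group 1 tumor was above every NAM. The log2 FC was 0.05 (SE 0.34) for group 1 against NAM, less than its standard error, and -2.21 (SE 0.31) for group 2 against NAM. Without replicate 5 or replicate 7 of group 1 the former was -0.02 and -0.07. An unnamed gene model on the opposite strand overlaps its exons and had 125 counts over all samples. The strand setting of the counting is not given in the sources used here, so reads of the pair cannot be told apart.

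PTPRT, on chromosome 24 from 30000637 to 30820835, encodes a receptor-type tyrosine phosphatase of the R2B group. It was at 1.43 to 75.9 CPM in group 1 (median 9.28), 0 to 6.79 CPM in group 2 (median 0.717) and 1.91 to 10.5 CPM in NAMs (median 3.46). Its groups overlapped widely, since 8 of 10 NAMs fell within the range of group 2 and all 10 within that of group 1. In group 1, 3 tumors lay above every NAM and replicate 3, at 1.43 CPM, lay below every NAM. In group 2, 9 of 12 tumors were below every NAM, and replicates 11 and 12 had a count of 0. Its log2 FC was 3.99 (SE 0.90) for group 1 against group 2, 2.32 (SE 0.78) for group 1 against NAM and -1.65 (SE 0.68) for group 2 against NAM.

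BRINP1, on chromosome 11 from 72628582 to 72764077, encodes a neural protein induced by bone morphogenetic protein and retinoic acid. Its range was 5.57 to 228 CPM in group 1 (median 23.2), 0 to 12.1 CPM in group 2 (median 2.00) and 6.44 to 50.2 CPM in NAMs (median 11.8). Replicates 1, 2 and 4 of group 1 were at 228, 152 and 143 CPM and were the 3 tumors above every NAM, while 10 of 12 group 2 tumors were below every NAM. This gave a log2 FC of 4.90 (SE 0.88) for group 1 against group 2.

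VSTM2L, on chromosome 24 from 26442678 to 26478325, encodes a secreted protein with an immunoglobulin V-set domain. It was at 10.7 to 194 CPM in group 1 (median 63.5), 1.01 to 23.3 CPM in group 2 (median 6.06) and 17.5 to 80.8 CPM in NAMs (median 26.2). In group 1, 2 tumors lay above and 1 below every NAM, and in group 2, 11 of 12 lay below. Against NAM, the log2 FC was 1.23 (SE 0.50) for group 1 and -2.08 (SE 0.45) for group 2, and between the tumor groups it was 3.31 (SE 0.55).

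TOX2, on chromosome 24 from 31522798 to 31656373, encodes a nuclear protein with an HMG box. It ranged from 49.8 to 332 CPM in group 1 (median 90.6), from 0.677 to 38.2 CPM in group 2 (median 8.29) and from 40.4 to 147 CPM in NAMs (median 86.3). All 10 NAMs and all 7 group 1 tumors were above every group 2 tumor, and 7 of 10 NAMs fell within the range of group 1. The log2 FC was 0.47 (SE 0.55) for group 1 and -2.82 (SE 0.51) for group 2 against NAM, and the value of group 1 was -0.02 (SE 0.55) without its replicate 2.

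CHST1, on chromosome 18 from 43723851 to 43738888, encodes a sulfotransferase that acts on galactose residues of keratan sulfate. It was at 18.2 to 366 CPM in group 1 (median 148), 3.75 to 81.5 CPM in group 2 (median 15.1) and 63.8 to 274 CPM in NAMs (median 96.2). Replicates 1 and 7 of group 1 lay below every NAM, at 38.9 and 18.2 CPM, and replicate 3 of group 2, at 81.5 CPM, was the one group 2 tumor not below every NAM. The log2 FC was 0.43 (SE 0.55) for group 1 and -2.77 (SE 0.50) for group 2 against NAM. The value of group 1 was 0.114 to 0.628 with each of its tumors left out.

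**Figure D2:**
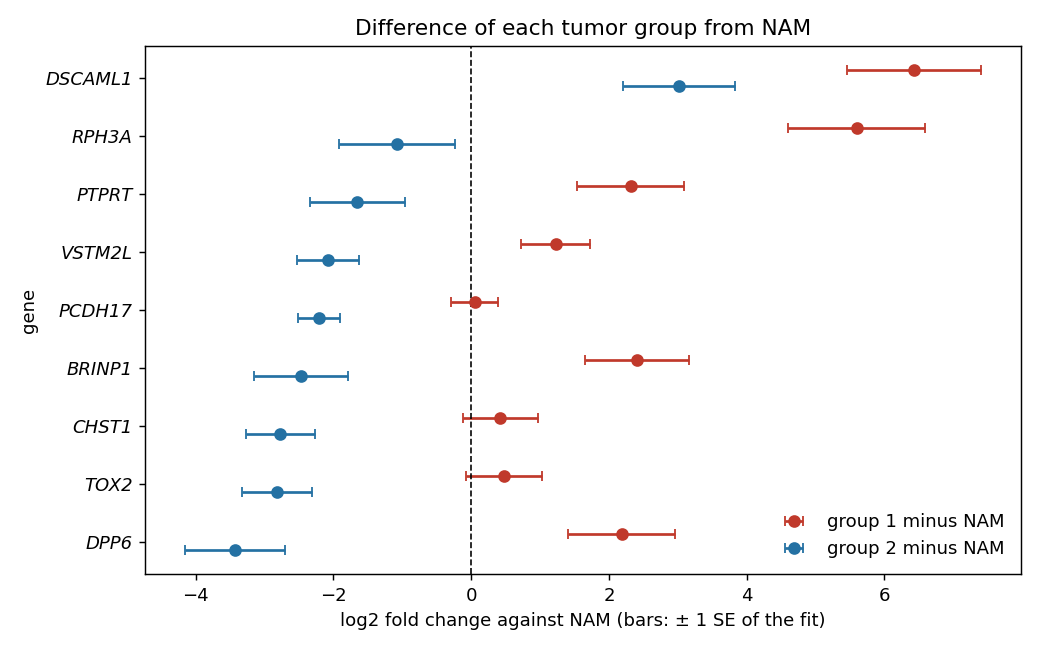
Log2 fold change of group 1 (red) and group 2 (blue) against NAM (x axis) for each of the 9 genes (y axis), from 1 fit of 3 groups; points are estimates, bars are 1 SE and the dashed line is no difference. Group 2 lies below NAM for 8 genes, from -1.07 for RPH3A to -3.43 for DPP6, and above it for DSCAML1 at 3.02; both series share the 10 NAMs.

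Counted over all genes, groups that did not overlap were rare. Every NAM was above every group 2 tumor for 2 of the 9 genes, TOX2 and PCDH17, and for 205 of 14766 genes overall (1.39%). Every group 1 tumor was above every group 2 tumor for TOX2 alone, and for 6 of 14766 genes (0.0406%). Since the genes were chosen by the contrast of the tumor groups, and the low values of group 2 enter both counts, nothing is read from either. Of the 14666 genes tested between the tumor groups, 3.97% were higher in group 1 at the threshold of 0.1 for the adjusted p, and 1.73% without replicate 7 of group 1. The 9 genes were chosen by this contrast and are not counted against that share. The comparisons of each tumor group with NAM use the same 10 NAMs.

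No tumor carried the whole set. Of the 9 genes, replicate 2 of group 1 had 7 above every NAM, replicates 1 and 5 had 5, and replicate 6 had 1. Replicate 7 of group 1 had 3 genes above and 3 below every NAM. Each group 2 tumor had between 5 and 8 genes below every NAM, and none had more than 1 above. The genes were chosen for a higher level in group 1 than in group 2, and such counts were not made over all genes. They are given as a description, and nothing is read from them. Replicates 6 and 9 of group 2 each held the highest value of that group for 4 genes, BRINP1, PTPRT, DSCAML1 and PCDH17 in replicate 6 and DPP6, VSTM2L, TOX2 and RPH3A in replicate 9. Replicate 6 of group 2 also had the lowest DPP6 of all samples, 0.194 CPM.

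Levels can be compared between genes only per length. In group 1, the median per kb of exon was highest for VSTM2L at 103 CPM per kb, followed by CHST1 at 87.4 and DPP6 at 73.1, and lowest for PTPRT at 1.91 and RPH3A at 0.733. NAMs had CHST1 first, at 56.7 CPM per kb, then VSTM2L at 42.6, with DPP6 and TOX2 close together at 14.6 and 14.4. The order at the low end differed between the groups. DSCAML1 was the lowest of the 9 genes in NAMs, at 0.0320 CPM per kb, and stood above PTPRT and RPH3A in group 1, at 4.27 CPM per kb. The length of VSTM2L in the table was 615 bases, the shortest of the 9, and its level per kb depends on that annotation.

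All PPGLs together were then compared with NAMs, a contrast other than the one that chose the genes, although the tumors whose values chose them make up the PPGL mean. The low-count filter asked for 0.437 CPM in 10 samples. RPH3A reached it in 6 group 1 tumors, 3 group 2 tumors and 3 NAMs, and DSCAML1 in 7, 6 and 1, so both passed only through the group where they are high, and their values are given as a description. DSCAML1 had a mean of 0.253 ± 0.163 CPM (SD, n = 10) in NAMs, and of 9.62 ± 13.4 CPM (SD, n = 19) over the PPGLs, of which 17 lay above the NAM median. The log2 FC of DSCAML1 was 5.21 (SE 1.10). RPH3A lay above the NAM median in 10 of 19 PPGLs, with a log2 FC of 4.19 (SE 1.40), and of 1.56 without replicate 2 of group 1. These were the 2 of the 9 genes past the threshold of edgeR's quasi-likelihood test as higher in PPGLs, as were 22.3% of the 14766 genes tested, and 1 of them, DSCAML1, without that tumor. Nothing is read from this count, since both genes entered the test through group 1. None of the 7 genes that passed the filter without group 1 was called higher.

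None of the 9 genes was called lower in PPGLs by edgeR's quasi-likelihood test, against 15.2% of all genes tested. At an unadjusted p below 0.05 this test gave 1 lower gene, DESeq2's Wald test 1, and the Mann-Whitney U-test 4. The share of all genes at an unadjusted p was not counted, here or for the lists below, so nothing is read from such counts. After adjustment, DESeq2 called 0 lower, against 17.2% of all genes, and the Mann-Whitney U-test 3, TOX2, CHST1 and PCDH17, against 20% of all genes. Each of these tests called 1 of the 9 higher, DSCAML1, against 23.8% of all genes for DESeq2 and 18.9% for the Mann-Whitney U-test. The adjusted p of PCDH17 by the quasi-likelihood test was 0.0812 (log2 FC -0.94, SE 0.43), and without replicate 7 or replicate 5 of group 1 it was called lower. A mean over all PPGLs joins tumors on both sides of NAM. For DPP6 the mean log2 FC was 0.80 (SE 1.02, FDR-adjusted p = 0.566), whereas 14 of 19 PPGLs were below the NAM median. This log2 FC was 0.406 to 1.065 with each sample left out, and lowest without replicate 5 of group 1. When the 3 groups were fitted apart and averaged by their numbers of tumors, on the 15201 genes that passed the low-count filter for 3 groups, TOX2, CHST1 and PCDH17 were called lower, against 16.7% of all genes, at log2 FCs of -1.60, -1.59 and -1.38, and DPP6 had a log2 FC of -1.36 (FDR-adjusted p = 0.071). These 3 genes were also the ones called lower by that fit on the 14766 genes of the comparison above, again against 16.7%. On either set of genes it called 1 of the 9 higher, DSCAML1, against 22.4% and 22.3% of all genes.

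Transcripts of the adrenal cortex differed between the groups alongside these genes, highest in NAMs and lowest in group 1. Of 10 adrenocortical markers tested, 9 were lower in PPGLs than in NAMs, where 15.2% of all genes were lower, and 9 were lower in group 1 than in group 2, where 2.95% of all genes were lower. Among those lower in PPGLs, CYP11A1 had a log2 FC of -3.43 (SE 1.02) and NR5A1 of -3.28 (SE 0.79). Between the tumor groups, CYP11A1 and MC2R had log2 FCs of -6.96 (SE 1.53) and -6.92 (SE 1.21). Without replicate 6 of group 1 these were -8.489 and -8.695. The authors had already reported genes of this list, CYP11A1 and CYP21A2 among them, as lower in both comparisons of these samples. The shares of markers called were thus partly known in advance. Fewer cells of a type and less RNA per cell cannot be told apart in bulk tissue. When the mean log2 level of these 10 markers, taken as a cortical score, was added to the model, the PPGL against NAM fit called 7 of the 9 genes lower, against 6.63% of all genes, and 0 higher, against 8.21%. The log2 FC of DSCAML1 was 0.92 in that fit (FDR-adjusted p = 0.553). The score itself differed between the tissues, with a mean of 9.95 ± 0.72 (SD, n = 10) in NAMs, 1.45 ± 1.43 (SD, n = 7) in group 1 and 6.75 ± 1.86 (SD, n = 12) in group 2. It thus carries the contrast of the tumor groups that chose the 9 genes. For that reason nothing is read from the calls and log2 FCs of these genes in the fit with the score.

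Within a group, where the contrast between the tumor groups is not used, the cortical score was correlated with each gene, giving 27 relations. In NAMs, r was negative for all 9 genes, from -0.79 to -0.08. RPH3A and DSCAML1 passed the low-count filter only through group 1, and had 1 to 28 and 1 to 15 counts in NAMs. They stay in the counts and in the adjustment, but nothing is read from their r in NAMs or in group 2. The strongest was VSTM2L (r = -0.79, two-sided permutation p = 0.0057, adjusted p = 0.104 over 27 relations, rho = -0.83, permutation p = 0.00471, n = 10). Without the 2 NAMs farthest from the median score its r was -0.74. An unadjusted permutation p below 0.05 was reached by 6 genes in NAMs, and none passed after adjustment. The score was not correlated with all other genes. Neither this count nor that of negative r thus has a share over all genes beside it, and nothing is read from either. In group 2 the relation took no common sign, with 7 positive and 2 negative r, from -0.40 for CHST1 to 0.66 for PCDH17 (permutation p = 0.0192, adjusted p = 0.104, rho = 0.48, permutation p = 0.12, n = 12, and r = 0.52 without the 2 farthest tumors). In group 1, r ranged from -0.49 to 0.38, and the lowest adjusted p was 0.557 by an exact permutation test over 7 tumors. With library size in place of TMM, 5 of the 27 relations passed.

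How far the genes varied together was measured in NAMs and in group 2. Over the 36 pairs, the median r was 0.54 in NAMs and 0.36 in group 2, with 31 and 30 positive values, and the difference was not tested. These values include the pairs with RPH3A or DSCAML1, which passed the low-count filter only through group 1, and nothing is read from those pairs. In NAMs, 6 pairs passed an adjusted p of 0.05 over 72 relations by Pearson's r, and 0 by Spearman's rho. By rho, 8 pairs had an unadjusted permutation p below 0.05. Pairs of other genes were not correlated within NAMs or group 2. The counts of pairs and the median r thus have no value over all genes beside them, and nothing is read from them. DPP6 and VSTM2L were the closest pair (r = 0.96, permutation p = 2e-05, adjusted p = 0.00144, rho = 0.87, permutation p = 0.00215, adjusted p = 0.0518, n = 10), and r was 0.91 without the 2 NAMs farthest from the median of DPP6. BRINP1 and PTPRT followed (r = 0.91, permutation p = 0.00013, adjusted p = 0.00468, rho = 0.84, permutation p = 0.0036, n = 10), with r = 0.85 without 2 NAMs. The remaining 4 pairs were among DPP6, BRINP1, VSTM2L and CHST1. Without 2 NAMs, r fell from 0.83 to 0.66 for DPP6 with BRINP1 and from 0.82 to 0.63 for BRINP1 with VSTM2L. It rose from 0.81 to 0.89 for DPP6 with CHST1 and from 0.83 to 0.90 for VSTM2L with CHST1. These genes also had negative r with the cortical score in NAMs, and the part of the score in the pairs was not tested. In group 2, 1 pair passed, RPH3A with PCDH17 (r = 0.83, permutation p = 0.0018, adjusted p = 0.0432, rho = 0.89, permutation p = 0.00033, adjusted p = 0.0238, n = 12, r = 0.77 without 2 tumors), but 5 of the 12 RPH3A counts were 0 and 6 were at or under 3, so this pair lies close to the floor and nothing is read from it.

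Relatives of the 9 genes were compared in the same way. Of 51 relatives listed, 46 were in the table and 42 were tested. Of these, 11 were higher (26.2%, beside 22.3% of all genes tested) and 2 lower (4.76%, beside 15.2%) in PPGLs than in NAMs, with a median log2 FC of 0.50 beside 0.13. Between the tumor groups, 2 were higher in group 1, KCND1 and PTPRK (4.76%, beside 3.97%), and 1, SYTL5, was lower (2.38%, beside 2.95%), with a median of 0.09 beside 0.04. Shares called between the tumor groups were thus close to those over all genes. The p-values between the tumor groups describe a split that was drawn on the same samples.

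Among Kv4 channel genes, the pore subunit KCND1 was higher in group 1 (log2 FC 1.52, SE 0.50, FDR-adjusted p = 0.0938), a call lost when any of 16 of the 19 tumors was left out, and DPP10, the closest relative of DPP6, was not called (log2 FC 1.48, SE 1.05, FDR-adjusted p = 0.462). KCNIP3, a calcium-binding subunit, was lower in PPGLs than in NAMs, at a log2 FC of -0.83 (SE 0.20, FDR-adjusted p = 0.00178). It was the only 1 of 6 Kv4 genes called lower by edgeR and by DESeq2, while the Mann-Whitney U-test called 3 lower, KCNIP3, KCNIP2 (adjusted p = 0.0063) and DPP10 (adjusted p = 0.015). DPP10 had medians of 49.1 CPM in NAMs, 7.11 CPM in group 1 and 9.64 CPM in group 2. Both other BRINP genes were higher in PPGLs than in NAMs, BRINP2 by a log2 FC of 2.82 (SE 0.69) and BRINP3 by 2.17 (SE 0.63), and neither was called between the tumor groups. The same held for the 3 VSTM genes tested, of which VSTM2A had the largest log2 FC against NAM (2.54, SE 0.92, FDR-adjusted p = 0.0297) and VSTM4 the next (2.24, SE 0.53). The VSTM2A call was lost without NAM replicate 8 (FDR-adjusted p = 0.0519) and by the Mann-Whitney U-test (adjusted p = 0.438). None of the 3 TOX genes, TOX, TOX3 and TOX4, and neither of the 2 sulfotransferases tested, CHST3 and CHST7, was called in either comparison. At an unadjusted p below 0.05 the quasi-likelihood test gave 1 of them, TOX3, against NAM and 0 between the tumor groups. DESeq2 and the Mann-Whitney U-test also each gave 1 TOX gene against NAM at an unadjusted p below 0.05, and called 0 after adjustment.

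PTPRK was the one R2B phosphatase called higher in group 1 (log2 FC 2.33, SE 0.68, FDR-adjusted p = 0.0644). The PTPRK median of group 1 was 12.8 CPM, beside 8.18 CPM for group 2, while the highest group 1 tumor reached 271 CPM, and without replicate 2 of group 1 the log2 FC was 0.33 (FDR-adjusted p = 0.743). Of the R2B phosphatases, 0 of 3 were called against NAM by edgeR, DESeq2 or the Mann-Whitney U-test, nor at an unadjusted p. Of 16 Rab3 and Rab27 genes and effectors, 4 were higher in PPGLs (25%, beside 22.3% of all genes) and 1, RIMS2, was lower (6.25%, beside 15.2%; log2 FC -0.70, SE 0.27), the latter a call lost when any of 15 of the 29 samples was left out. SYTL1, which binds Rab27, was the highest of these (log2 FC 4.30, SE 0.61, FDR-adjusted p = 5.86e-06), followed by DOC2B (log2 FC 1.32, SE 0.21). Its relative SYTL5 was lower in group 1 than in group 2 (log2 FC -2.87, SE 0.83, FDR-adjusted p = 0.0608), and was not called without replicate 7 of group 1 (log2 FC -2.85, FDR-adjusted p = 0.117). Without replicate 6 of group 1 its log2 FC was -4.01 (FDR-adjusted p = 0.0147). Among 7 delta-protocadherins, PCDH9 (log2 FC 1.82, SE 0.68) and PCDH1 (log2 FC 0.73, SE 0.24) were higher in PPGLs by edgeR's test. The PCDH9 median was 20.6 CPM in group 1, 162 CPM in group 2 and 41.5 CPM in NAMs, and its call was lost when any of 9 of the 29 samples was left out. The Mann-Whitney U-test called PCDH1 higher and PCDH7 and PCDH19 lower, with an adjusted p of 0.373 for PCDH9, and DESeq2 called PCDH1 and PCDH9 higher and 0 lower. None of the 7 was called between the tumor groups by edgeR's test, nor at an unadjusted p. DSCAM, the relative of DSCAML1, did not pass the low-count filter.

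A wider list of neuronal genes bears on the name of the set. Of 25 genes, 24 were in the table, and 7 of the 23 tested against NAM were higher in PPGLs (30.4%, beside 22.3% of all genes) and 2 lower (8.7%, beside 15.2%) by edgeR's test. DESeq2 called 8 higher and 2 lower, and the Mann-Whitney U-test 4 and 3. GAP43, a growth cone protein, had a log2 FC of 4.23 (SE 1.10, FDR-adjusted p = 0.00346) and STMN4, a regulator of microtubules, of 3.43 (SE 0.71, FDR-adjusted p = 0.000427). Without replicate 7 of group 1 these were 3.59 and 2.65, and both were still called. The Mann-Whitney U-test called STMN4 and not GAP43 (adjusted p = 0.273). The neurofilament genes NEFL and NEFM were lower, at log2 FCs of -2.87 (SE 0.57) and -2.10 (SE 0.53). Between the tumor groups, 4 of 24 were higher in group 1 (16.7%, beside 3.97% of all genes) and 0 lower, with a median log2 FC of 0.91 beside 0.04. Without replicate 7 of group 1, 2 of 24 were higher (8.33%, beside 1.73%), and the median was 0.50. At an unadjusted p below 0.05 edgeR's test gave 8 higher and 0 lower.

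The 4 were DCX (log2 FC 3.76, SE 1.06, FDR-adjusted p = 0.0563), ELAVL2 (log2 FC 2.57, SE 0.59), NRCAM (log2 FC 1.73, SE 0.37) and NCAM1 (log2 FC 1.71, SE 0.27, FDR-adjusted p = 0.00541). The DCX median was 0.238 CPM in group 1 and 0.239 CPM in group 2, and the highest group 1 tumor had 29.2 CPM. Medians of ELAVL2 were 13.3 and 7.47 CPM, with a highest group 1 value of 258 CPM. Both calls rested on replicate 7 of group 1, without which the log2 FC was 1.82 for DCX (FDR-adjusted p = 0.347) and 0.76 for ELAVL2 (FDR-adjusted p = 0.245). NRCAM and NCAM1 were called with any 1 of the 19 tumors left out. NCAM1, a cell adhesion molecule, had medians of 160 CPM in group 1, 56.1 CPM in group 2 and 151 CPM in NAMs, with NAM beside group 1 as for TOX2. The 24 genes summed to a median of 4262 CPM in group 1, 2769 CPM in group 2 and 2982 CPM in NAMs, and L1CAM was the most abundant in each.

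REST, the repressor of neuronal genes, had a median of 6.02 CPM in group 1, 7.28 CPM in group 2 and 9.58 CPM in NAMs, and was called in neither comparison (log2 FC -0.55, SE 0.26, FDR-adjusted p = 0.0935 against NAM). Its corepressor RCOR2 was higher in PPGLs than in NAMs by a log2 FC of 2.41 (SE 0.47, FDR-adjusted p = 0.000222) and in group 1 than in group 2 (log2 FC 1.63, SE 0.43, FDR-adjusted p = 0.0426), the latter not without replicate 7 of group 1 (log2 FC 1.14, FDR-adjusted p = 0.16). RCOR1 and RCOR3 were not called.

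Other marker lists were measured beside these results, and their part in them was not tested. Of 15 chromaffin markers, 4 were higher (26.7%, beside 22.3% of all genes) and 1 lower (6.67%, beside 15.2%) in PPGLs. Of the 4, the largest log2 FCs were those of PHOX2A, a transcription factor of noradrenergic cells (2.17, SE 0.24), and SCG3, a granin (2.01, SE 0.45), and the lower gene was PNMT, which converts noradrenaline to adrenaline (-1.94, SE 0.64, and -2.75 without replicate 2 of group 1). Between the tumor groups, HAND2 alone was higher in group 1 (log2 FC 1.02, SE 0.30), a call lost without replicate 3, 4 or 7 of group 1 (FDR-adjusted p up to 0.146). SLC18A2, the vesicular monoamine transporter, had medians of 1.65 CPM in group 1, 572 CPM in group 2 and 55.1 CPM in NAMs. It was not called by edgeR's test (FDR-adjusted p = 0.629 between the tumor groups and 0.0626 against NAM) or against NAM by the Mann-Whitney U-test (adjusted p = 0.438), while DESeq2 called it higher in PPGLs than in NAMs (log2 FC 2.52, adjusted p = 0.0133). The 15 markers summed to a median of 47180 CPM in group 1 (9127 to 195465), 87235 CPM in group 2 (27863 to 174284) and 40677 CPM in NAMs (25084 to 124874). None of the 7 Schwann and sustentacular markers tested was called in either comparison by edgeR's test, while 2 had an unadjusted p below 0.05 and were lower in PPGLs, DESeq2 called 2 lower and the Mann-Whitney U-test 3. Their summed medians were 33.1 CPM in group 1, 30.7 CPM in group 2 and 108 CPM in NAMs.

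Proliferation genes were also compared. Of 9 tested, 8 were higher in PPGLs (88.9%, beside 22.3% of all genes) and 7 were higher in group 1 than in group 2 (77.8%, beside 3.97%). The authors had already named KIF11, CCNB2, TOP2A and BUB1 as higher in these PPGLs than in NAMs, so the first share was partly known in advance. Without replicate 7 of group 1, 1 of 9, AURKA, was higher in group 1 (11.1%, beside 1.73%). TOP2A had log2 FCs of 3.26 (SE 0.71) against NAM and 2.22 (SE 0.60) between the tumor groups, BUB1 of 3.09 (SE 0.72) and 2.38 (SE 0.62), and CCNB2 of 3.11 (SE 0.67) and 1.85 (SE 0.59), the last a call lost when any of 11 of the 19 tumors was left out. Between the tumor groups without that tumor, these were 0.79 for TOP2A (FDR-adjusted p = 0.367), 1.33 for BUB1 (FDR-adjusted p = 0.216) and 0.92 for CCNB2 (FDR-adjusted p = 0.391). Against NAM without replicate 7 of group 1, TOP2A was at 2.31, BUB1 at 2.30 and CCNB2 at 2.49, each still called. The call of CDK1 against NAM was lost when any of 18 of the 29 samples was left out. Sums over the 9 genes ranged from 28.1 to 1353 CPM in group 1, from 38.6 to 172 CPM in group 2 and from 18.1 to 79.3 CPM in NAMs. The medians of these sums were 150 CPM in group 1, 74.8 CPM in group 2 and 35.9 CPM in NAMs.

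Of the markers of other cells, 4 of 6 fibroblast genes were higher in PPGLs (66.7%, beside 22.3% of all genes). COL1A1 (log2 FC 3.72, SE 0.85) and COL3A1 (log2 FC 3.09, SE 0.75) led. Without replicate 11 of group 2 these were at 2.74 and 2.14, and 3 of 6 fibroblast genes were higher. DESeq2 called 3 fibroblast genes higher and the Mann-Whitney U-test 2. Of 5 endothelial genes, 3 were lower (60%, beside 15.2%), TEK (log2 FC -1.14, SE 0.25) and KDR (log2 FC -1.09, SE 0.305) most. Among leukocyte markers, CD3E was higher (log2 FC 1.93, SE 0.63, but adjusted p = 0.168 by the Mann-Whitney U-test) and CSF1R lower (log2 FC -0.72, SE 0.26), not called without NAM replicate 2 (FDR-adjusted p = 0.0555). Each was 1 of 6 leukocyte genes (16.7%, beside 22.3% and 15.2% of all genes). None of these 17 genes was called between the tumor groups, and 1 was higher and 6 were lower in group 1 at an unadjusted p below 0.05 by edgeR's test. Summed medians in group 1, group 2 and NAMs were 564, 989 and 443 CPM for fibroblast genes, 384, 379 and 621 CPM for endothelial genes, and 416, 440 and 622 CPM for leukocyte genes. CD79A was the most abundant leukocyte gene in each group, with medians of 366, 283 and 450 CPM in the same order. PTPRC had medians of 10.8, 13.8 and 16.0 CPM. The leukocyte sums thus mainly follow CD79A, and nothing is read from them on leukocyte content.

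The genes whose pattern was most like that of the 9 were found by their mean Pearson r with them over the 29 samples, which share group differences, so no p is given. Of the 10 highest, 3 had no gene name. COL22A1, a collagen, had a mean r of 0.68, the BTB-domain gene BTBD11 of 0.68, the ubiquitin ligase PJA1 of 0.68 and ISL1, a LIM-homeodomain transcription factor of sympathetic neurons, of 0.66. EFNB1, an ephrin, HSBP1 and the opioid receptor OPRK1 had 0.64, 0.63 and 0.61. ISL1 had medians of 150 CPM in group 1, 0.836 CPM in group 2 and 31.8 CPM in NAMs, and COL22A1 of 288, 23.6 and 196 CPM. NAM was above group 2 for both, but the NAMs were among the samples that chose these genes, so nothing is read from this position.

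Position was not used to choose the genes. VSTM2L, PTPRT and TOX2, 3 of the 9, lie on chromosome 24 between 26442678 and 31656373, whereas 2.73% of the genes tested were on that chromosome. The other genes within this interval, which was chosen after the positions had been seen, were compared between the tumor groups. Of 24 tested, 2 were higher (8.33%) and 1 was lower (4.17%) in group 1, with a median log2 FC of 0.30. Of 372 other genes of the chromosome, 24 were higher (6.45%) and 7 lower (1.88%), with a median of 0.15. Over all genes, 3.97% were higher and 2.95% lower, with a median of 0.04.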

How the data were processed

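The authors sequenced stranded mRNA libraries and deposited 1 table of raw read counts on the exons of each Ensembl gene (CanFam3.1), with exon length as another value per gene; the submitters' notes name FastQC, STAR, Picard and HTSeq, whereas the sample labels name a featureCounts table, so the counting tool is unclear. Whether reads were counted by strand, and how reads fitting several genes were treated, is not given in the sources used here. Counts were filtered with edgeR 4.0.16 (filterByExpr, minimum count 10, minimum total 15) in R 4.3.3 and TMM-normalized, leaving 14766 genes over 29 samples and 14666 over the 19 PPGLs. Fold changes (prior count 0.125) and p-values came from the quasi-likelihood test, with Benjamini-Hochberg adjustment over all genes tested, at 0.05 for PPGLs against NAMs and 0.1 between tumor groups. The SE of a log2 FC was derived from that test, as the absolute log2 FC divided by the square root of its F statistic. Log2 levels used a prior count of 2. Correlations used 100000 permutations, or all 5040 orders for 7 tumors, in Python 3.11.15. DESeq2 1.42.0 was an alternative. Named genes were the 9 genes, the 2 called list genes with the largest fold per direction, the defining or most abundant genes, and the 10 most similar genes; others were chosen after their values were seen. The genes and lists were chosen with earlier results of these data known. Of 143 list genes, 10 were not found by name. The steps were tested on simulated data.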

Additional observations from a re-analysis of the deposited data

Results flagged for a closer look

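Among the 18 sets of values checked on the CPM scale, those of the 9 genes in group 1 and in NAMs, 3 had a sample far from the others. The check expects about 1 in 20 by chance for normally distributed values, which CPM need not be, so this rate may not hold here. It was not run on log2 levels, where all 3 gaps are a smaller part of the range, so the flags may not hold there. RPH3A was 125 CPM in replicate 2 of group 1, and the next tumor was at 10.1 CPM. TOX2 was 332 CPM in the same tumor, with the next at 113 CPM. BRINP1 was 50.2 CPM in NAM replicate 4, with the next NAM at 19.6 CPM. Group 2, with 12 tumors, was not checked in this way.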

How the results depend on the processing

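The higher level in group 1 than in group 2 kept its sign for the 9 genes under RLE size factors, library size, a prior count of 2 and each of 19 PPGLs left out, but the choice of the genes fixes that sign. RPH3A moved most, to 4.08 without replicate 2 of group 1. For PPGLs against NAMs, the 2 genes called higher became 1 (DSCAML1) with at least 1 CPM in 7 samples, which RPH3A did not pass, with 3 groups in the fit, with DESeq2 and with the Mann-Whitney U-test, and 0 when the cortical score was a covariate (DSCAML1 at 0.92 in place of 5.21, FDR-adjusted p = 0.553). The count was 1 to 2 with each sample left out. The 0 genes called lower became 3 with 3 groups in the fit, 3 with the Mann-Whitney U-test and 7 with the cortical score, and were 0 to 1 with each sample left out. The score differs between the tumor groups whose contrast chose the genes, so nothing is read from the counts of the 9 genes with it. The low-count filter for 3 groups passed 15201 genes in place of 14766. On those 14766 genes, an alternative chosen after seeing the data, the 3-group fit also called 1 higher and 3 lower. With the score, all genes called fell to 1212 higher and 979 lower. The causes were not tested.

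Log2 FCs that changed sign were those of DPP6, BRINP1, VSTM2L and PTPRT, not called by the quasi-likelihood test of PPGLs against NAMs, and that of RPH3A, which it called higher. With 3 groups in the fit the first 4 were -1.36, -0.67, -0.86 and -0.19 (-1.36, -0.67, -0.85 and -0.18 on the 14766 genes). With the cortical score they were -4.64, -3.23, -3.16 and -3.30, and RPH3A was at -2.16 (FDR-adjusted p = 0.305). Since that score differs between the tumor groups whose contrast chose the genes, nothing is read from these signs. By the Mann-Whitney U-test, the differences in mean rank were -6.72, -4.73, -6.26 and -3.97. VSTM2L, at 0.03, was -0.007 without the low-count filter and -0.39 to 0.26 with each sample left out.

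With the replicate number as a block, 1 gene was called higher, and DPP6, BRINP1, VSTM2L and PTPRT had log2 FCs of -0.90, -0.13, -0.51 and -0.32. The numbers mark different dogs: of 24 same-numbered pairs, 2 had deviations that correlated above 0.1, and 4 of 27 samples were closest to their own number.

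NAM was nearer to group 1 for 7 genes with library-size CPM and with means, and for 3 on the linear scale. Relations with the cortical score past the threshold were 0 with a prior count of 0.5 and 5 with library size, and pairs were 6 with library size in place of 7. Counts of list genes called stayed within 1.5 times under RLE size factors. With each sample left out, also chosen after seeing the data, they were 34 to 40 higher and 17 to 20 lower in PPGLs, and 4 to 16 higher and 9 to 12 lower in group 1, the 4 being without replicate 7 of group 1. Depth limits RPH3A in group 2, where 6 of 12 tumors had 3 counts or fewer. It also limits RPH3A and DSCAML1 in NAMs, at 1 to 28 and 1 to 15 counts. DSCAML1 in group 2 ran from 0 to 351 counts, with 2 of 12 tumors at 3 or fewer.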
